A study of Rattus norvegicus with 6 samples.

Results

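The autophagy core genes are 10 genes of the rat count table, found by their gene symbol: Ulk1, Becn1, Wipi2, Atg7, Atg12, Atg5, Map1lc3b, Map1lc3a, Gabarapl1 and Sqstm1. All 10 had exactly 1 row among the 20609 genes of the table, and all 10 passed the filter on low counts, which kept 12624 genes. Membership is set by name and uses no measured value, although earlier results of these data were known when the genes were proposed. The study measured poly-A RNA by RNA-seq in PC12 cells, a line derived from a pheochromocytoma of the rat adrenal medulla, to learn which transcripts change when the RNA-binding protein PCBP-1 is overexpressed. The control group was 3 libraries of cells carrying a control plasmid, and the PCBP1-OE group 3 libraries of cells carrying the PCBP-1 expression plasmid, which according to the methods encodes an EGFP-tagged protein. Both groups were the same cell line, and no further allele, agent or time point is named in the labels. The study's text calls the libraries of a group biological replicates, but the labels do not say whether they came from separate cultures, so the p-values measure the spread between these libraries, which may be technical. The study's text describes both a transfection and a stable overexpression, and which of them the sequenced libraries came from was not clear from the sources used here. The gene of PCBP-1 itself was not analysed here, so the overexpression named in the labels is unchecked.

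Autophagy encloses cytoplasm in a double-membrane vesicle, the autophagosome, and delivers it to the lysosome for breakdown. It starts with the ULK kinase complex and with a phosphatidylinositol 3-kinase complex built on Beclin 1. WIPI proteins read the lipid this kinase makes, and a pair of ubiquitin-like conjugation systems then attaches LC3 and GABARAP proteins to the growing membrane. Cargo receptors such as p62 hold ubiquitinated material and LC3 at the same time and are degraded together with their cargo. Flux through this pathway is set largely at the protein level, and transcript counts do not measure it. In neurons and neuroendocrine cells, autophagy is studied for its part in clearing protein aggregates and damaged mitochondria.

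The libraries held 19730209 to 22315623 counts on genes. Values are given as CPM, counts scaled to a common library total, after TMM scaling, which removes differences in depth and composition between libraries. The 10 genes had between 305 (Atg7) and 28945 (Sqstm1) counts in any library. In 5 of them the coefficient of variation between replicates was above the Poisson counting error of the mean count in both groups. In the other 5 it was below that error in at least 1 group: Map1lc3b, Gabarapl1 and Atg5 in controls, and Atg5, Ulk1 and Wipi2 in PCBP1-OE. No transcript lengths were used here, so levels are compared between libraries and not between genes. Of 7 chromaffin markers matched in the table, 5 had under 10 counts in every library: Dbh (0 to 5), Ddc (0 to 4), Chga (0 to 3), Chgb (0 to 9) and Phox2a (1 to 7). Th, the rate-limiting enzyme of catecholamine synthesis, had 141 to 185 counts and Slc18a1 17 to 28. Sox10, a glial lineage factor, had 7160 to 9007 counts and Pdgfra 3939 to 4941, so the usual markers of the labelled cell type were low or absent in both groups. On the TMM scale, the summed glial markers were at 402 to 422 CPM in controls and 374 to 387 in PCBP1-OE, the summed fibroblast markers at 225 to 230 and 200.1 to 212, and the summed leukocyte markers at 6.87 to 7.86 and 6.18 to 6.35, so all 3 sums were lower in PCBP1-OE with no overlap. The summed chromaffin markers, at 8.72 to 9.92 and 8.71 to 10.3, overlapped. Of 10 markers tested, 2 passed an unadjusted p of 0.05 and 0 an adjusted p of 0.05 by edgeR. Both were lower in every PCBP1-OE library than in any control: Sox10 with a log2 change of -0.12 ± 0.042 (adjusted p = 0.0790) and Pdgfra with -0.14 ± 0.043 (adjusted p = 0.0644). These changes were close in size to the log2 change of Sqstm1 (0.14), and the part of these levels in the results was not tested. In bulk RNA, fewer cells of a kind and less RNA per cell cannot be told apart.

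Did the autophagy core genes change with PCBP-1 overexpression? None of the 10 passed an adjusted p of 0.05 by edgeR's quasi-likelihood test, in which 1193 of all 12624 genes did (9.45%), 562 higher and 631 lower in PCBP1-OE. With upper-quartile scaling the split over all genes was 655 higher and 427 lower. At an unadjusted p of 0.05, 2 of the 10 passed, Sqstm1 and Atg12, both higher in PCBP1-OE, where 28.4% of all genes tested passed (1722 higher and 1866 lower). DESeq2 called 1 of the 10, Sqstm1, and 1418 of all genes (11.2%). The limma-voom fit and edgeR's exact test called 0 of the 10, and 1197 (9.48%) and 1594 (12.6%) of all genes. None of the 10 reached a 2-fold change, the threshold that the study used. In the quasi-likelihood fit used here, 24 of all genes did so with an adjusted p of 0.05 (0.190%). This is not the study's own count, which was larger and came from its own edgeR run. Changes are given as log2 fold changes of PCBP1-OE against control ± standard error. They ran from -0.14 for Map1lc3a to 0.17 for Atg12, with 5 above and 5 below 0 and a median of 0.016, beside a median of 0.0029 over all genes tested. The median size of the change, regardless of sign, was 0.067 for the 10 genes and 0.13 for all genes. In 2 of the 10 genes the groups did not overlap, Sqstm1 higher and Becn1 lower, where 30.6% of all genes tested had groups apart.

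**Figure D1:**
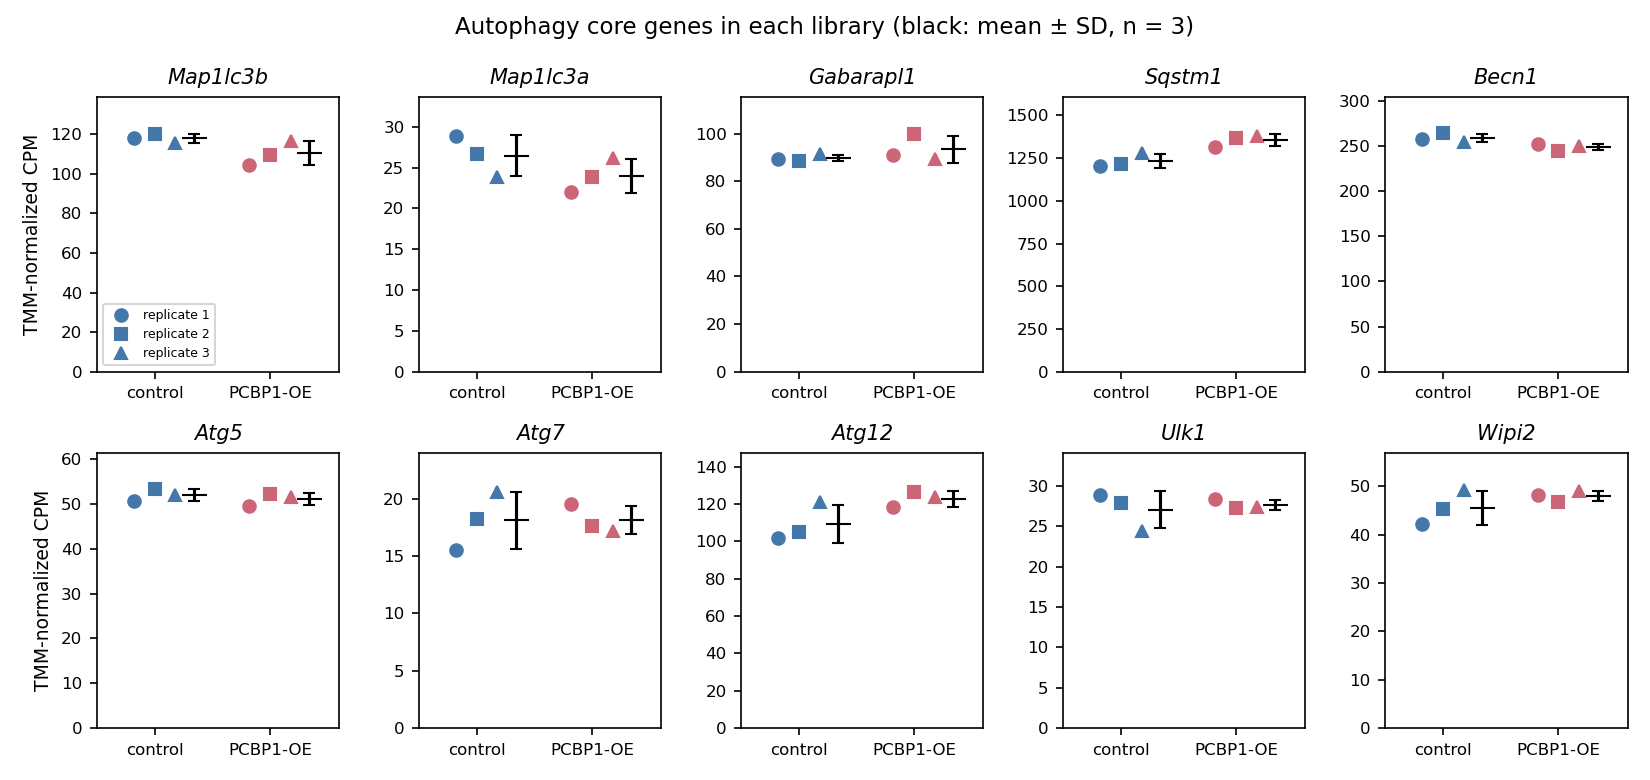
TMM-normalized CPM (vertical axes, each from 0) of the 10 autophagy core genes in the 3 control (blue) and 3 PCBP1-OE (red) libraries, with replicates 1, 2 and 3 as circle, square and triangle and the mean ± SD (n = 3) in black. Sqstm1 is the gene whose PCBP1-OE libraries all lie above the controls, at 1313 to 1381 against 1203 to 1280, and Becn1 the gene whose PCBP1-OE libraries all lie below them.

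The intervals show what size of change these libraries leave possible. For all 10 genes the 95% interval of the change, not adjusted for the number of genes, lay within 2-fold in both directions, as it did for 90.2% of all genes tested. The widest was that of Atg7, from 0.851-fold to 1.17-fold, and the narrowest that of Becn1, from 0.905-fold to 1.02-fold. Intervals that left out no change at all were those of Sqstm1 (1.03-fold to 1.17-fold) and Atg12 (1.03-fold to 1.23-fold).

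**Figure D2:**
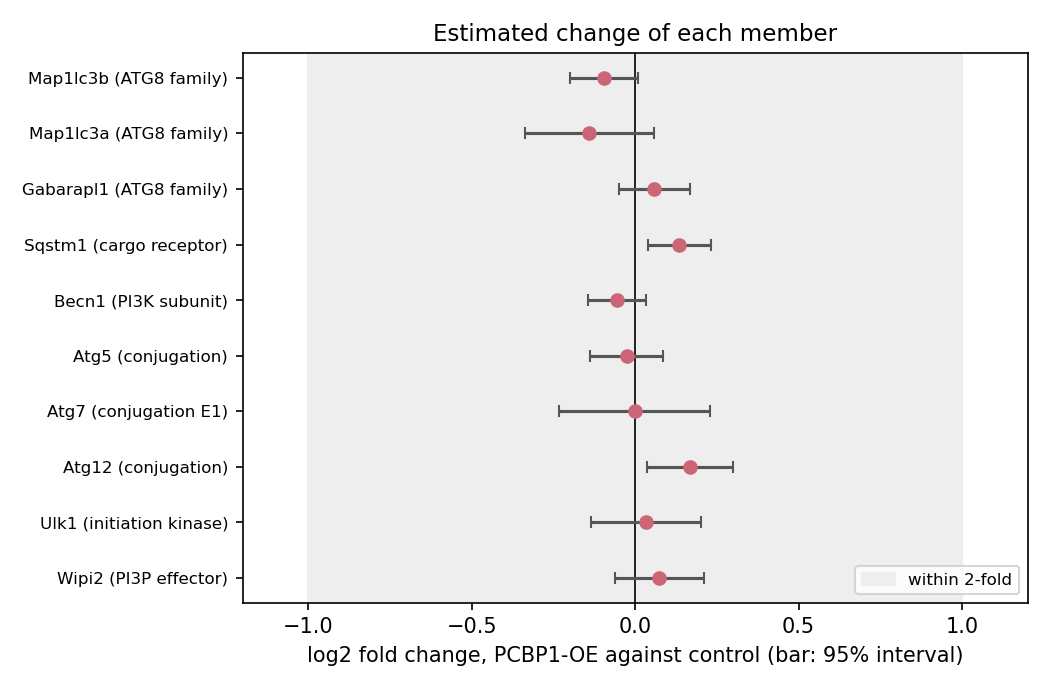
Log2 fold change of PCBP1-OE against control (horizontal axis) of each autophagy core gene with its role, from the edgeR fit over 3 libraries a group, with bars for the 95% interval and shading for changes within 2-fold. All 10 intervals lie inside the shading, and those of Sqstm1 and Atg12 lie to the right of 0.

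Ulk1 (ENSRNOG00000037505, chromosome 12) encodes the kinase that starts autophagosome formation when mTORC1 releases it. It was at 28.9, 27.9 and 24.4 CPM in control replicates 1, 2 and 3 and at 28.4, 27.3 and 27.4 CPM in PCBP1-OE. The PCBP1-OE libraries fell inside the range of the controls, of which replicate 3 was the lowest. The group means were 27.1 ± 2.35 and 27.7 ± 0.635 CPM (SD, n = 3 each), a log2 change of 0.033 ± 0.078, with an adjusted p of 0.819 in the edgeR fit. Without control replicate 3 the estimate turned to -0.037.

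Becn1 (ENSRNOG00000020513, chromosome 10) encodes Beclin 1, the scaffold of the lipid kinase complex. It was at 257, 264 and 255 CPM in controls and at 252, 245 and 250 CPM in PCBP1-OE. Every PCBP1-OE library was below every control, but the nearest pair, control replicate 3 and PCBP1-OE replicate 1, differed by little. The means of 259 ± 4.76 and 249 ± 3.61 CPM (SD, n = 3 each) gave a log2 change of -0.056 ± 0.041 (adjusted p = 0.400 by the quasi-likelihood test), and -0.0357 without control replicate 2. Its spread between replicates was the smallest of the 10 genes in PCBP1-OE, with a coefficient of variation of 1.45%, against 1.84% in controls.

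Wipi2 (ENSRNOG00000001114, chromosome 12) encodes the lipid-binding protein that brings the conjugation machinery to the membrane. It was at 42.3, 45.2 and 49.2 CPM in controls and at 48.2, 46.8 and 49.0 CPM in PCBP1-OE. All 3 PCBP1-OE libraries were above the control mean, and the highest library of all was control replicate 3. On the log2 scale the change was 0.074 ± 0.063 and the adjusted p from edgeR 0.472. Leaving out control replicate 1 gave 0.0298 and leaving out control replicate 3 gave 0.133, neither of them called.

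Atg7 (ENSRNOG00000007486, chromosome 4) encodes the E1-like enzyme that activates both ATG12 and the LC3 family. It was at 15.6, 18.2 and 20.6 CPM in controls and at 19.5, 17.6 and 17.2 CPM in PCBP1-OE. The controls spanned all of the PCBP1-OE libraries, and their coefficient of variation of 13.8% was the largest of any of the 10 genes in either group. Both group means were 18.1 CPM (SD 2.50 and 1.24, n = 3 each), with a log2 change of -0.0015 ± 0.11.

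Atg12 (ENSRNOG00000000157, chromosome 18) encodes the ubiquitin-like protein that is joined to ATG5. It was at 102, 105 and 121 CPM in controls and at 118, 126 and 124 CPM in PCBP1-OE. Control replicate 3 lay above PCBP1-OE replicate 1, so the groups overlapped by that library. The means were 109 ± 10.3 and 123 ± 4.10 CPM (SD, n = 3 each), with a fitted difference of 12.3%. The log2 change of 0.17 ± 0.060 had an unadjusted p of 0.0157 and an adjusted p of 0.0898 in the edgeR fit. Without control replicate 3 it was 0.25 with an adjusted p of 0.00209, and over 14 alternatives the adjusted p ran from 0.00209 to 0.319, with 2 of them calling the gene.

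Atg5 (ENSRNOG00000000322, chromosome 20) encodes the partner of ATG12, and the joined pair helps to attach LC3 to lipid. It was at 50.7, 53.3 and 52.0 CPM in controls and at 49.6, 52.2 and 51.6 CPM in PCBP1-OE. These libraries overlapped widely, unlike the near separation of Atg12. The estimated change was, on the log2 scale, -0.025 ± 0.052 (adjusted p = 0.788 by the same edgeR test). With 1 library left out it ran from -0.0402 (PCBP1-OE replicate 2) to -0.00227 (control replicate 2), and it was -0.00402 without PCBP1-OE replicate 1.

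The LC3 and GABARAP proteins are the ubiquitin-like tags of the autophagosome membrane. Map1lc3b (ENSRNOG00000017905, chromosome 19), whose lipid-bound protein is the usual marker of autophagosomes, was at 118, 120 and 116 CPM in controls and at 105, 110 and 117 CPM in PCBP1-OE. All 3 PCBP1-OE libraries were below the control mean, and PCBP1-OE replicate 3 lay above control replicate 3. The means of 118 ± 2.24 and 110 ± 6.06 CPM (SD, n = 3 each) gave a log2 change of -0.096 ± 0.048 (unadjusted p = 0.0663, adjusted p = 0.209 in the edgeR fit). Without PCBP1-OE replicate 1, the lowest library, it was -0.0596.

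Map1lc3a (ENSRNOG00000025443, chromosome 3), its close paralog, was at 28.8, 26.7 and 23.8 CPM in controls and at 22.0, 23.8 and 26.1 CPM in PCBP1-OE. Here too all 3 PCBP1-OE libraries were below the control mean, and the groups overlapped. The log2 change of -0.14 ± 0.092 was the lowest of the 10 genes and had an adjusted p of 0.339 in edgeR. It came to -0.069 without control replicate 1 and -0.212 without control replicate 3, and no such fit called it.

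Gabarapl1 (ENSRNOG00000053362, chromosome 4), a member of the GABARAP branch, was at 89.4, 88.5 and 91.2 CPM in controls and at 91.1, 99.9 and 89.4 CPM in PCBP1-OE. PCBP1-OE replicate 2 alone stood above the controls. Its log2 change came to 0.059 ± 0.050 (adjusted p = 0.474 by edgeR) and 0.0094 without that library, while it was 0.0968 without PCBP1-OE replicate 3. The other paralogs in the same family, Gabarap and Gabarapl2, had log2 fold changes of -0.083 and -0.074 with adjusted p of 0.330 and 0.304 in the edgeR fit. The estimate for Gabarap was -0.0324 without PCBP1-OE replicate 1. Of the 5 genes of the LC3 and GABARAP family, 4 were estimated below 0, as were 6254 of all 12624 genes tested. None of the 5 passed the test, and signs in so few genes say nothing of the family. Reads that match several near-identical copies were not counted by the authors, so counts of this family may miss some reads.

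Sqstm1 (ENSRNOG00000003147, chromosome 10) encodes p62, the receptor that links ubiquitinated cargo to LC3 and that also binds KEAP1. It was at 1203, 1217 and 1280 CPM in controls and at 1313, 1369 and 1381 CPM in PCBP1-OE. Every PCBP1-OE library was above every control. The means were 1233 ± 40.8 and 1355 ± 36.1 CPM (SD, n = 3 each), with a fitted difference of 9.85%. The log2 change of 0.14 ± 0.044 had an unadjusted p of 0.00881 and an adjusted p of 0.0682 by edgeR's quasi-likelihood test. Over 14 alternatives the adjusted p ran from 0.0119 to 0.215, and 4 of them called the gene: DESeq2 (0.0195), no filter (0.0135), upper-quartile scaling (0.0446) and leaving out control replicate 3 (0.0119). Its partner Keap1, the adaptor that targets NRF2 for degradation, was at a log2 fold change of -0.050 (adjusted p = 0.521 in edgeR). The PCBP1-OE libraries of Keap1, at 60.6 to 63.6 CPM, lay below the controls, at 64.1 to 64.8 CPM. Groups lay apart in 30.6% of all genes tested. Nfe2l2, which encodes NRF2, was at 0.15 (standard error 0.049, adjusted p = 0.0705 in edgeR), and its PCBP1-OE libraries, at 292 to 326 CPM, lay above the controls, at 273 to 288 CPM. It was called with DESeq2 (0.04), with no filter (0.0306) and without control replicate 3 (0.0205).

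For Sqstm1, the gene with the smallest p of the 10, and for Atg5, the gene with an E-box, the 100 bases that end at the annotated first base of the transcript are shown 5′ to 3′ (RefSeq, build GRCr8; the count table rests on another build). Capitals mark the E-box. Sqstm1 is on the minus strand at chr10:35037750-35037849 and Atg5 on the plus strand at chr20:49380736-49380835.
Sqstm1: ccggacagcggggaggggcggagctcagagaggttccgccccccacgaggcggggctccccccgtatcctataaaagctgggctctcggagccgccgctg
Atg5: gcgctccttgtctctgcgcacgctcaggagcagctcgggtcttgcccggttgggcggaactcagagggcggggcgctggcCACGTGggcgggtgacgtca

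Promoter windows of 300 bases (250 before the start, 50 from it on) were found for 8 of the 10 genes, and those of Map1lc3a and Becn1 were not used here. The start used lay at the boundary of the annotated gene for 5 of the 8, but not for Map1lc3b, Atg7 and Atg12. The E-box CACGTG, read by the lysosomal and autophagy regulators TFEB and TFE3 among many other factors, was found in the window of 1 of these 8 genes, Atg5, beginning 19 bases before the start. It occurs in 6.42% of all 33469 windows. Its extended form TCACGTGA, which contains the E-box, occurred in 0 of the 8 windows and in 0.777% of all. The antioxidant response element TGACNNNGC, searched on both strands, was in the window of 1 gene, Map1lc3b, as TGACTCGGC beginning 8 bases before the start, and in 12.1% of all windows. In Sqstm1 none of these letters were found, which concerns this window only.

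**Figure D3:**
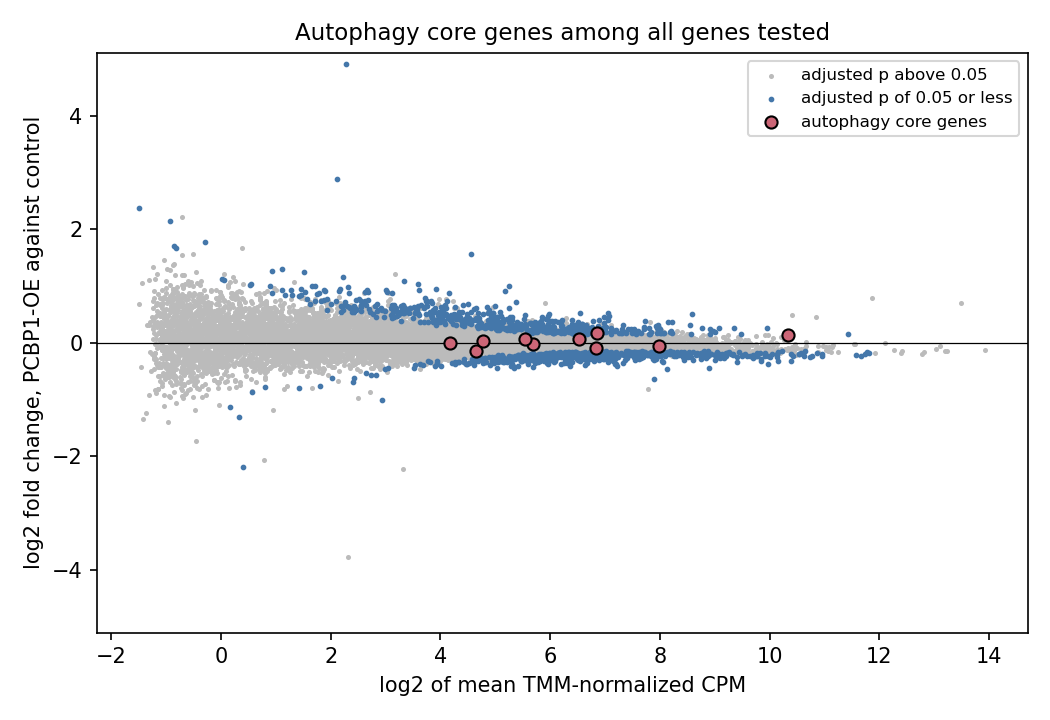
Log2 fold change of PCBP1-OE against control (vertical axis) against log2 of the mean TMM-normalized CPM (horizontal axis) for all 12624 genes tested, with genes of an adjusted p of 0.05 or less in blue and the 10 autophagy core genes in red. The red points lie close to 0, between -0.14 and 0.17, at levels where other genes passed the test.

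Single libraries moved these estimates. Among the 10 genes, control replicate 3 was the highest control in 5 (Gabarapl1, Sqstm1, Atg7, Atg12 and Wipi2) and the lowest in 4 (Map1lc3b, Map1lc3a, Becn1 and Ulk1), where over all genes tested it was the highest in 37.5% and the lowest in 37%. In 7 of the 10 it was the control nearest to the PCBP1-OE mean, and over all genes tested it was so in 50.1%, against 26% for control replicate 1 and 23.9% for control replicate 2. Without control replicate 3 the test called 2 of the 10 genes, Sqstm1 and Atg12, while it called 2860 genes in all (22.3%). With any other library left out it called 0 of the 10. In 8 of the 10 genes the sign of the estimate was the same in all 6 fits that left out a library, and the exceptions were Atg7 and Ulk1.

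**Figure D4:**
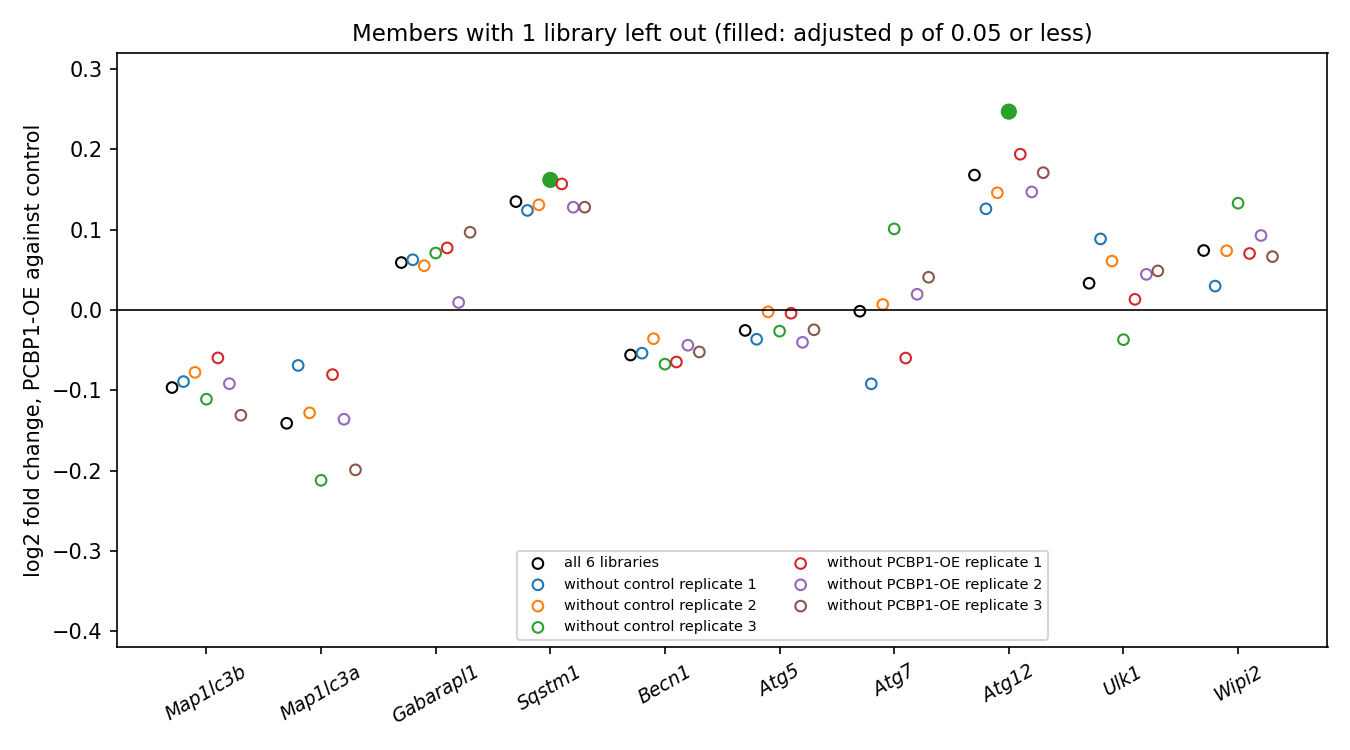
Log2 fold change of PCBP1-OE against control (vertical axis) of the 10 autophagy core genes with all 6 libraries (black) and with each library left out in turn (colours), with filled points for an adjusted p of 0.05 or less. The filled points are those of Sqstm1 (0.16) and Atg12 (0.25) without control replicate 3.

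Other genes of the pathway were taken from a list of 60, of which 57 had a row and 56 enough counts. In PCBP1-OE 2 rose and 1 fell at an adjusted p of 0.05, together 5.36% of the 56, against 9.45% of all genes tested. The median log2 fold change was 0.061, beside 0.0029 over all genes tested. The estimate was above 0 in 33 genes and below 0 in 23, beside 6370 and 6254 of all genes. At an unadjusted p of 0.05, 10 were higher and 1 lower, together 19.6% of the 56, below the 28.4% of all genes tested.

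The genes that rose were Rb1cc1 and Uvrag. Rb1cc1, or FIP200, a scaffold of the ULK complex, was at 34.3, 36.3 and 35.7 CPM in controls and at 47.4, 41.9 and 38.0 CPM in PCBP1-OE. All PCBP1-OE libraries were above the controls, and replicate 1 was the highest. In the fit the log2 change was 0.26 ± 0.077 (adjusted p = 0.0494 in edgeR), and it no longer passed with limma-voom (0.0543) or in 4 of the 6 fits that left out a library, in which the adjusted p was 0.146 and 0.144 on omission of the controls 1 and 2, and 0.212 and 0.129 on omission of the PCBP1-OE libraries 1 and 2. Without PCBP1-OE replicate 1 the log2 change was 0.173.

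Uvrag, a Beclin 1 partner that acts in autophagosome maturation and endosome traffic, was at 62.2, 63.9 and 61.8 CPM in controls and at 72.6, 69.3 and 68.7 CPM in PCBP1-OE. These groups did not overlap. On the log2 scale the change was 0.17 ± 0.048 (adjusted p = 0.0463 in edgeR), and it was above 0.05 with DESeq2 (0.0659) and limma-voom (0.0524). Of the fits that left out a library, the one without control replicate 3 kept it (0.0425), while omission of the controls 1 and 2 gave 0.0988 and 0.113, and omission of the PCBP1-OE libraries 1, 2 and 3 gave 0.168, 0.117 and 0.0558.

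The gene that fell was Vamp8, a SNARE protein of the fusion of autophagosome and lysosome. It was at 79.4, 80.01 and 71.1 CPM in controls and at 64.6, 65.6 and 67.1 CPM in PCBP1-OE. The groups did not overlap, and control replicate 3 was the control nearest to PCBP1-OE. The estimated change was, on the log2 scale, -0.22 ± 0.054 (adjusted p = 0.0268 in edgeR). It passed without control replicate 3 (0.00113) but on omission of the controls 1 and 2 the adjusted p was 0.0944 and 0.136, and of the PCBP1-OE libraries 1, 2 and 3 it was 0.111, 0.0935 and 0.0501. Its fusion partners Stx17 and Snap29 had log2 fold changes of 0.22 and 0.16 with adjusted p of 0.431 and 0.127 in edgeR, and the tethering subunits Vps39 and Vps41 0.16 and 0.23 with adjusted p of 0.0692 and 0.157. The estimate of Vps41 was 0.12 without control replicate 1 and 0.382 without control replicate 3, where it passed (adjusted p = 0.0014 in edgeR).

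By role, the initiation list had 1 of 4 genes higher, the lipid kinase list 1 of 5 higher, and the fusion list 1 of 8 lower, beside 9.45% of all genes, and a single call in a list this short says nothing of the role. At an unadjusted p of 0.05 these lists had 2, 1 and 4 genes, where 28.4% of all genes passed. None passed among the 9 lipid effector and membrane supply genes, the 8 conjugation and LC3 processing genes, the 2 other LC3 and GABARAP paralogs, the 9 cargo receptors and the 11 upstream regulators, in which 2, 0, 0, 1 and 1 genes passed an unadjusted p of 0.05. DESeq2, limma-voom and edgeR's exact test called 4, 1 and 6 of the 56 genes, or 7.14%, 1.79% and 10.7%, beside 11.2%, 9.48% and 12.6% of all genes. The largest estimate was that of Atg13, a ULK complex subunit, at 3.0, 4.3 and 6.2 CPM in controls and 6.7, 7.6 and 6.6 CPM in PCBP1-OE. Its log2 change came to 0.64 ± 0.21 (adjusted p = 0.0718 in edgeR). The 6 fits without a library gave 0.424 (adjusted p = 0.216, control replicate 1 left out) to 0.945 (adjusted p = 0.00209, control replicate 3 left out). Of these 6 fits only the one without control replicate 3 called the gene. In all, 4 of the 14 alternatives called Atg13, among them DESeq2 (0.0353), edgeR's exact test (0.0407) and no filter (0.00304). Wdfy3, or ALFY, a scaffold for aggregate clearance, was at 13.2, 6.5 and 9.99 CPM in controls and 11.6, 17.3 and 16.6 CPM in PCBP1-OE, so its groups overlapped (log2 fold change 0.61, standard error 0.21, adjusted p = 0.0762 in edgeR). Its estimate was 0.392 without control replicate 2 and 0.875 without control replicate 1. Wdfy3 was called in 2 of the 14 alternatives, edgeR's exact test (0.045) and no filter (2.41e-05), and not with DESeq2 (0.22). Atg2b, a lipid transfer protein, had a log2 fold change of 0.19 (adjusted p = 0.0638 in edgeR) and was called in 4 of the 14 alternatives, among them the exact test (0.0461) and the fits without control replicate 3 (0.0383) and without PCBP1-OE replicate 3 (0.033). Prkaa2, a catalytic subunit of the energy sensor AMPK, was at 0.39 (0.179) and Tax1bp1, a cargo receptor, at 0.099 (0.189), which passed without control replicate 3 (0.0238).

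In the reported fit, paralogs of the core genes did not pass the test either. Ulk2 had a log2 fold change of -0.078 (adjusted p = 0.690 in edgeR), and Ulk1 and Ulk2 were not compared with each other. In the WIPI family, Wipi1 was at -0.045 (0.556), Wdr45 at -0.0087 (0.956) and Wdr45b at 0.18 (0.0920), the last with PCBP1-OE libraries at 52.5 to 57.1 CPM above controls at 43.6 to 52.2 CPM. Wdr45b passed with no filter (0.0262) and without control replicate 3 (0.00986), and Wipi1 was at -0.0152 without PCBP1-OE replicate 1. Of the upstream regulators, Tfeb was at -0.0071 and Tfe3 at 0.25, with adjusted p of 0.960 and 0.236 in edgeR.

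**Figure D5:**
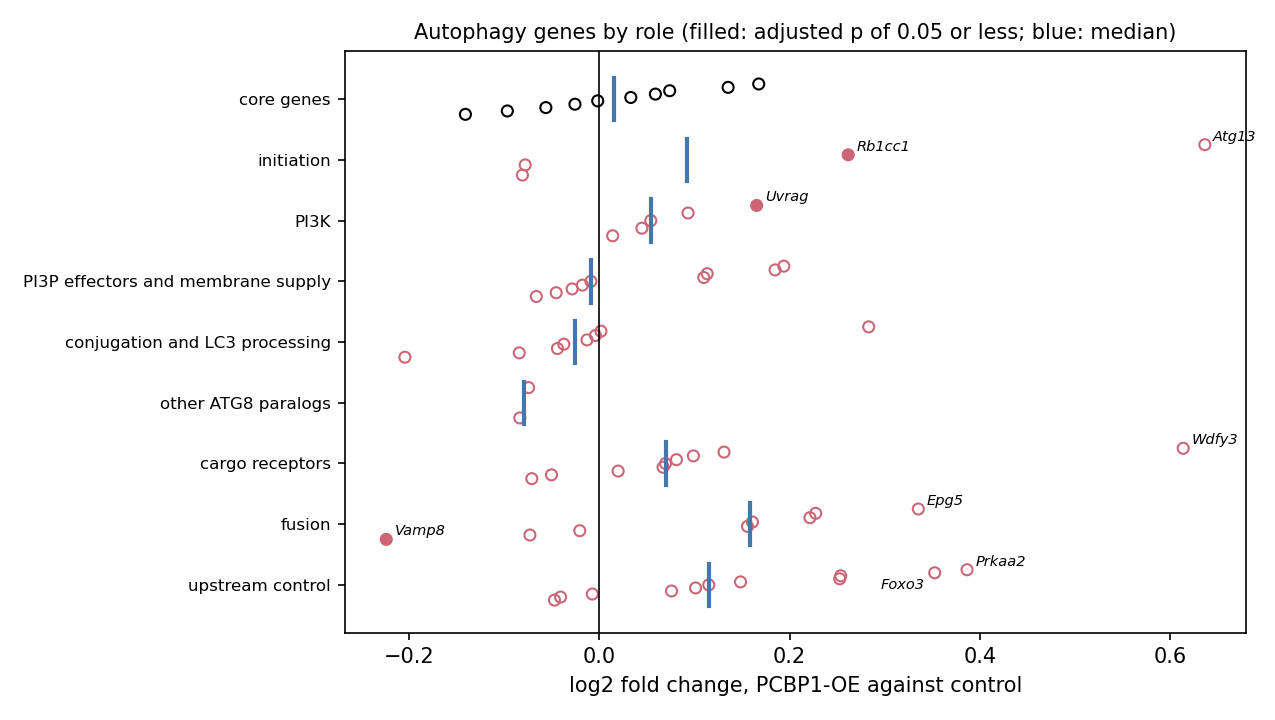
Log2 fold change of PCBP1-OE against control (horizontal axis) of the 10 autophagy core genes (black) and of the 56 other autophagy genes tested (red), grouped by role, with filled points for an adjusted p of 0.05 or less and a blue bar for each median. The filled points are Rb1cc1, Uvrag and Vamp8, and the core genes hold none.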

How the data were processed

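For each gene, the authors deposited unnormalized read counts from 3 control and 3 PCBP1-OE libraries. According to the methods, they cleaned reads with FASTX-Toolkit, aligned them with TopHat2 to the rat genome and counted unique alignments, while the submitters' processing notes name a human build that the rat gene identifiers go against. Which program counted reads, and whether by strand, is not given in the sources used here; overlapping and antisense genes are therefore uncertain. All genes were fitted with the quasi-likelihood test of edgeR 4.0.16 under R 4.3.3 (TMM, filterByExpr with a minimum count of 10 and a minimum total of 15), and p-values were adjusted over all 12624 genes by the Benjamini-Hochberg method. The filter left out 7985 genes. The test was tried on simulated counts with known changes. It called 32% of 97 genes with a true log2 change of 0.25 and 88.4% of 95 genes with a change of 1. Smaller changes, such as those estimated for the core genes, were not simulated. Standard errors were computed from the F statistic, and 95% intervals from the t quantile of the fit. Alternatives were RLE and upper-quartile scaling, other filters, DESeq2 1.42.0, limma-voom 3.58.1, edgeR's exact test, a replicate block and each library left out. Named genes are the 10 members, their paralogs and the 12 other pathway genes with the smallest adjusted p, while Keap1, Stx17, Tfeb and Tfe3 were named after their values were seen. Members, lists and tests were chosen with earlier results of these data known. Genes were matched by symbol, except Retreg1, which was matched through its older symbol in a RefSeq table of build GRCr8.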

Additional observations from a re-analysis of the deposited data

How the results depend on the processing

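The number of core genes that passed an adjusted p of 0.05 was 0 in the reported fit, 1 with upper-quartile scaling or DESeq2, 2 with no filter, and 0 to 2 with 1 library left out, the 2 without control replicate 3. Their median log2 fold change was 0.0358 with upper-quartile scaling, under which the median of all genes moved to 0.0227, and -0.00331 to 0.0447 with 1 library left out. Of the other pathway genes 9 passed with no filter, 1 with limma-voom, 6 with edgeR's exact test and 0 to 10 with 1 library left out, the 10 without control replicate 3. Over all genes 2090 passed with no filter and 48 to 2860 with 1 library left out. The replicate number as a block left 0 core genes, 0 pathway genes and 16 genes in all. The numbers were not taken as pairs, since deviations of same-numbered libraries correlated at -0.104, -0.0813 and -0.107, and no library correlated best with its own number. Atg7, at -0.0015, turned to 0.000237 with RLE, 0.0183 with upper-quartile scaling, 0.00164 with at least 1 CPM in 3 libraries, 0.000337 with DESeq2, 0.00244 with limma-voom and 0.00489 with the replicate block, and ran from -0.0919 to 0.101 with 1 library left out. Wdr45 turned to 0.0112 with upper-quartile scaling, and with 1 library left out Wdr45 ran from -0.0375 to 0.0336, Ulk1 from -0.0369 to 0.0885 and Ulk2 from -0.207 to 0.0634. The cause was not tested.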
